A study of Mus musculus with 24 samples.

Results

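The comparison set 3 libraries of wild-type cells from mice given the bacterium LGG against 3 libraries of wild-type cells from mice given IgG, 6 of the 24 libraries of the series. Each library is labelled as messenger RNA of CD11c+ dendritic cells, purified with CD11c MicroBeads from the mesenteric lymph nodes (MLN), which drain the gut. The donors were C57BL/6 female mice, 6 to 8 weeks old at injection, that carried tumours of MC38, a mouse colon carcinoma line, under the skin of the flank. All mice received 1000000 tumour cells, and treatment began 7 to 10 days later at an average tumour size of 100 mm3. LGG (Lactobacillus rhamnosus GG) was given live by mouth 2 times a week for 2 to 3 weeks. The IgG group received 200 ug of a control antibody per mouse on the same schedule. No antibody is recorded for the LGG group, so the groups differ in the bacterium and in the antibody recorded. A further 6 wild-type libraries, 3 given anti-PD-1 antibody alone at 200 ug and 3 given anti-PD-1 antibody with LGG, served below as a second comparison with and without the bacterium. The other 12 libraries came from Myd88 knockout mice and took no part in the main test. The labels do not say whether a library came from 1 mouse or several, or whether the replicates of a group came from separate mice, and the p-values may then reflect technical spread alone.

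Dendritic cells take up antigen in tissues such as the gut wall, carry it to the draining lymph node and show it to T cells. On contact with bacterial products, Toll-like receptors signal through adaptors such as Myd88 to NF-kB, MAP kinases and interferon regulatory factors. Maturing dendritic cells are known to reduce uptake and proliferation, to raise their capacity to present antigen and migrate, and to rearrange their metabolism. Monocytes and macrophages of the gut and lymph node can also carry CD11c on their surface, so a bead selection on CD11c can include them. A bulk library cannot tell fewer cells of one type from less RNA of a gene in each cell.

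Values are normalised counts, that is reads per gene divided by a factor for each library. The 6 libraries held 24531528 to 31226102 reads in the listed genes, and 12749 genes with a mean of at least 10 over all libraries were tested. Differences below are log2(normalised count + 1) in LGG minus IgG with the standard error of the limma model, which understates the change of low genes. A gene is said to have risen or fallen where the Benjamini-Hochberg adjusted p was under 0.05. The first principal component of the 12 wild-type libraries held 88.6% of the variance and placed all 6 libraries with LGG opposite all 6 without it. The second component held 3.16%, and LGG replicate 3 lay on it at -5.39, apart from LGG replicates 1 and 2 at 21.3 and 19.5. In LGG replicate 3, against the mean of replicates 1 and 2, the median log2 difference was 0.17 for genes with transcripts of at least 4811 bases and -0.16 for those of at most 2242 bases. Between LGG and IgG the same medians were -0.037 and 0.15. The Y-linked genes in the table summed to at most 6.53 normalised counts in any of the 6 libraries, as the label of female mice has it. All 4 had a mean of at least 10 over the 24 libraries, so some libraries outside these 6 held more. Whether those libraries match the label was not tested.

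The expression of a large share of all genes differed between the LGG and IgG libraries. Of 12749 genes, 9417 (73.9%) passed the test, 4720 (37.0%) of them higher and 4697 (36.8%) lower with LGG, and the median difference over all genes was -0.0032. The libraries of the 2 groups did not overlap for 9501 genes (74.5%). A difference over 2-fold that also passed the test was found for 3267 genes (25.6%), with 1671 higher (13.1%) and 1596 lower (12.5%). The large differences leaned upwards. A rise of over 8-fold was seen in 248 genes and a fall of that size in 166, and past 64-fold the counts were 16 and 4. The counts of members given below are to be read against these shares of all genes. Near these shares, a list said below to have divided shows no more than all genes do. When all 24 libraries shared 1 estimate of the spread, 7081 genes passed, of which 3198 were past 2-fold.

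**Figure D1:**
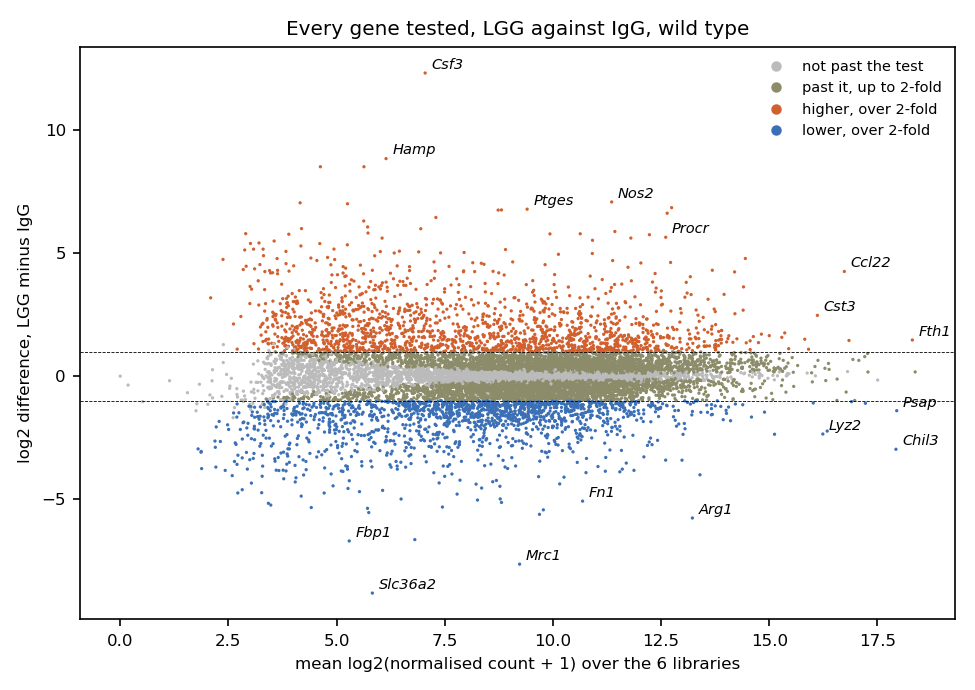
Each point is 1 of the 12749 genes tested, with the mean log2(normalised count + 1) over the 6 libraries on the x axis and the log2 difference, LGG minus IgG, on the y axis. Dashed lines mark 2-fold, orange points are the 1671 genes higher and blue points the 1596 genes lower past the test and 2-fold, and Csf3 at 12.34 and Slc36a2 at -8.83 are the extremes of the named genes.

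The labelled cell type was checked first against its markers. Itgax, which encodes CD11c, was present at 22690.3, 23196 and 23386 normalised counts in the IgG libraries and 9637, 9826 and 10019 in the LGG libraries. Every LGG library lay below every IgG library, and Itgax fell by 1.23 ± 0.04. Other genes that define dendritic cells were also present in every library, and several rose with LGG. Of the 12 genes listed for dendritic cell identity, Itgax among them, 8 rose, 2 fell and 2 did not pass the test. The other that fell was Ciita, at -0.57, which lost its call with all 24 libraries in the fit. The 12 genes summed to 209851 to 235926 normalised counts in IgG and 253870 to 291231 in LGG. Without Cd74, the most abundant, they summed to 110024 to 119542 and 146619 to 158754. In IgG the sum of the 12 lay below those of the macrophage and of the monocyte markers given below. Sums over different genes do not count cells. Flt3, the receptor for the growth factor that sustains dendritic cells, was at 113, 121 and 96.0 normalised counts in the IgG libraries and 658, 616 and 645 in the LGG libraries, a rise of 2.53 ± 0.11. Zbtb46, a transcription factor of conventional dendritic cells, rose by 2.43 ± 0.06, and Irf8, needed for the cDC1 lineage, by 2.73 ± 0.04. Of the MHC class II chain genes, H2-Aa rose by 0.30 ± 0.07, while H2-Ab1 at 0.11 ± 0.07 and the invariant chain Cd74 at 0.19 ± 0.08 did not pass the test.

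Markers of other cells moved with the groups. The 17 macrophage markers in the table, of 20 listed, summed to 324083 to 354740.0 in IgG and 85344 to 96326 in LGG, and 15 of them fell and 1 rose. Csf1r, which encodes the receptor for macrophage colony-stimulating factor, fell by 2.37 ± 0.04. The 13 monocyte markers in the table, of 14 listed, summed to 715316 to 740547 in IgG and 105644 to 115364 in LGG. Most of that sum is Chil3, a secreted chitinase-like protein, and the other 12 markers summed to 30989 to 33033 in IgG and 21837 to 23949 in LGG. Of the 13, 6 fell, 3 rose and 4 did not pass (median -0.36). Neutrophil markers, 15 in the table of 17, summed to 6976 to 7235 in IgG and 7136 to 7915 in LGG, where 7 rose and 7 fell. Mmp8, the most abundant of them, was at 3192 to 3273 in IgG and 925 to 959 in LGG. The other 14 summed to 3703 to 3976 in IgG and 6177 to 6965 in LGG. T cell markers stood at 21483 to 22476 in IgG and 26145 to 27159 in LGG, where 16 of 21 rose and 4 fell. Of the rises 2 were over 2-fold, and with all 24 libraries in the fit 7 rose and 4 fell. Natural killer cell markers stood at 45822 to 47807 in IgG and 66607 to 73964 in LGG, where 9 of 11 rose and 2 fell. B cell and plasma cell markers stood at 6128 to 6756 in IgG and 4607 to 5244 in LGG, yet 7 of 11 rose, 6 of them over 2-fold, and 2 fell (median 1.0). Without Sdc1, the most abundant of them, the other 10 summed to 1131 to 1167 in IgG and 1204 to 1519 in LGG. No listed marker in the table was at 0 in all 6 libraries except 1 Y-linked gene. In the same units the 19 migratory dendritic cell markers, of 20 listed, summed to 140857 to 153773 in IgG and 981527 to 1119916 in LGG, and 17 of them rose and 2 fell. The part that a changed mixture of cells plays in the differences below was not tested.

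Each list of dendritic cell subset markers held both rises and falls. Of 15 markers of cDC1, the subset specialised in showing antigen to CD8 T cells, 2 rose and 9 fell. They summed to 27680 to 28197 in IgG and 14063 to 14452 in LGG. Without Naaa, the most abundant of them, the sums were 15426 to 15781 in IgG and 12341 to 12691 in LGG. The chemokine receptor gene Xcr1 was at 12, 14.5 and 16.9 normalised counts in the IgG libraries and 209.6, 182 and 172 in the LGG libraries, a rise of 3.62 ± 0.22. Clec9a, a receptor for dead cells, was at 225, 232 and 182 in IgG and 18.9, 25.7 and 26.3 in LGG and fell by 3.12 ± 0.18. These 2 defining genes of 1 subset thus moved in opposite directions, and neither had overlapping groups. Of 13 cDC2 markers 4 rose and 6 fell, with Esam at 2.05 and the lectin Mgl2 at -4.01. The 13 summed to 85780 to 89139 in IgG and 33848 to 37056 in LGG. Without Mgl2, the most abundant of them, the sums were 42978 to 44520 in IgG and 31347 to 34289 in LGG. Plasmacytoid cell markers leaned upwards, with 7 of 11 higher, 1 lower and 3 not past the test (median 0.51). Their sum was 13645 to 15642 in IgG and 33605 to 39353 in LGG, most of it Bst2, a gene that interferon also induces, and the other 10 summed to 6207 to 7113 in IgG and 7648 to 8281 in LGG. The 11 markers include Ly6d, which rose by 2.72 ± 0.35, and Lair1, an inhibitory collagen receptor, which fell by 3.66 ± 0.08.

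Beyond cytokines, the largest rises were in genes of iron control, nitric oxide, lipid mediators and transport. Hamp, which encodes the iron hormone hepcidin, was at 2.18, 0 and 10.2 normalised counts in the IgG libraries and 1534, 1539 and 1484 in the LGG libraries. The LGG libraries lay close together far above IgG, and the rise was 8.85 ± 0.63 (adjusted p = 5.92e-08). Slc1a2, a glutamate transporter, was at 1.09, 8.13 and 7.91 normalised counts in the IgG libraries and 444, 407 and 472 in the LGG libraries, a rise of 6.32 ± 0.46. Itgb8, the integrin chain that activates latent TGF-beta, was at 3.27, 3.61 and 12.4 normalised counts in the IgG libraries and 424, 354 and 533 in the LGG libraries, a rise of 6.07 ± 0.38. Neither gene had overlapping groups. Ptges, the inducible synthase of prostaglandin E2, was at 51.2, 70.5 and 70.0 normalised counts in the IgG libraries and 7511, 7380.1 and 6559.9 in the LGG libraries, a 111-fold rise. Vnn3, a pantetheinase, rose by 7.02 ± 0.67, and Ifi205, an interferon-inducible gene, rose by 6.76 ± 0.11. For 3 genes the IgG group held so few reads that a ratio with its counting interval is given. Csf3, the gene of the growth factor G-CSF, had 3 and 27881 reads in the IgG and LGG groups, a ratio of 9219.9 (95% counting interval 3155 to 44711). Il1f6, an interleukin-36 gene, had 1 and 1383 reads, a ratio of 1372 (95% counting interval 246 to 54230.5). Barx1, a homeobox gene, had 3 and 601, a ratio of 199 (95% counting interval 67.7 to 966). These intervals cover counting error only.

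The largest falls were in a transporter, in uptake receptors and in enzymes. Slc36a2, a proton-coupled transporter of small amino acids, was at 1204, 1265 and 1162 normalised counts in the IgG libraries and 2.23, 1.03 and 1.88 in the LGG libraries. It was well counted in every IgG library and all but absent from every LGG library, a difference of -8.83 ± 0.31 (adjusted p = 3.81e-13). Mrc1, the mannose receptor, was at 8297, 8840.1 and 8399.9 normalised counts in the IgG libraries and 41.2, 35.0 and 48.9 in the LGG libraries, a difference of -7.65 ± 0.13. Fbp1, the fructose bisphosphatase of gluconeogenesis, was at 398, 396 and 404 normalised counts in the IgG libraries and 2.23, 2.06 and 4.70 in the LGG libraries, a difference of -6.71 ± 0.29. The 3 LGG values of Fbp1 rest on a few reads each, and no LGG library of either gene came near an IgG library. Tlr8, a receptor for RNA in endosomes, was at 1078, 1161 and 1132 in IgG and 16.7, 8.23 and 7.52 in LGG and fell by 6.65 ± 0.26. Fn1, which encodes fibronectin, fell by 5.09 ± 0.10, and Ptgis, the prostacyclin synthase, fell by 5.33 ± 0.18. Among falls of over 5 on the log2 scale were also Tifab (-5.62 ± 0.10), the chemokine receptor Ccr2 (-5.44 ± 0.08) and the lectin Clec4b1 (-5.38 ± 0.25). Lgi3, Mamdc2, Fcrls and Plxdc1 were also among the 15 largest falls, from -5.35 to -5.00. All genes named in this and the preceding paragraph with a model estimate had an adjusted p of 1.12e-06 or lower.

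**Figure D2:**
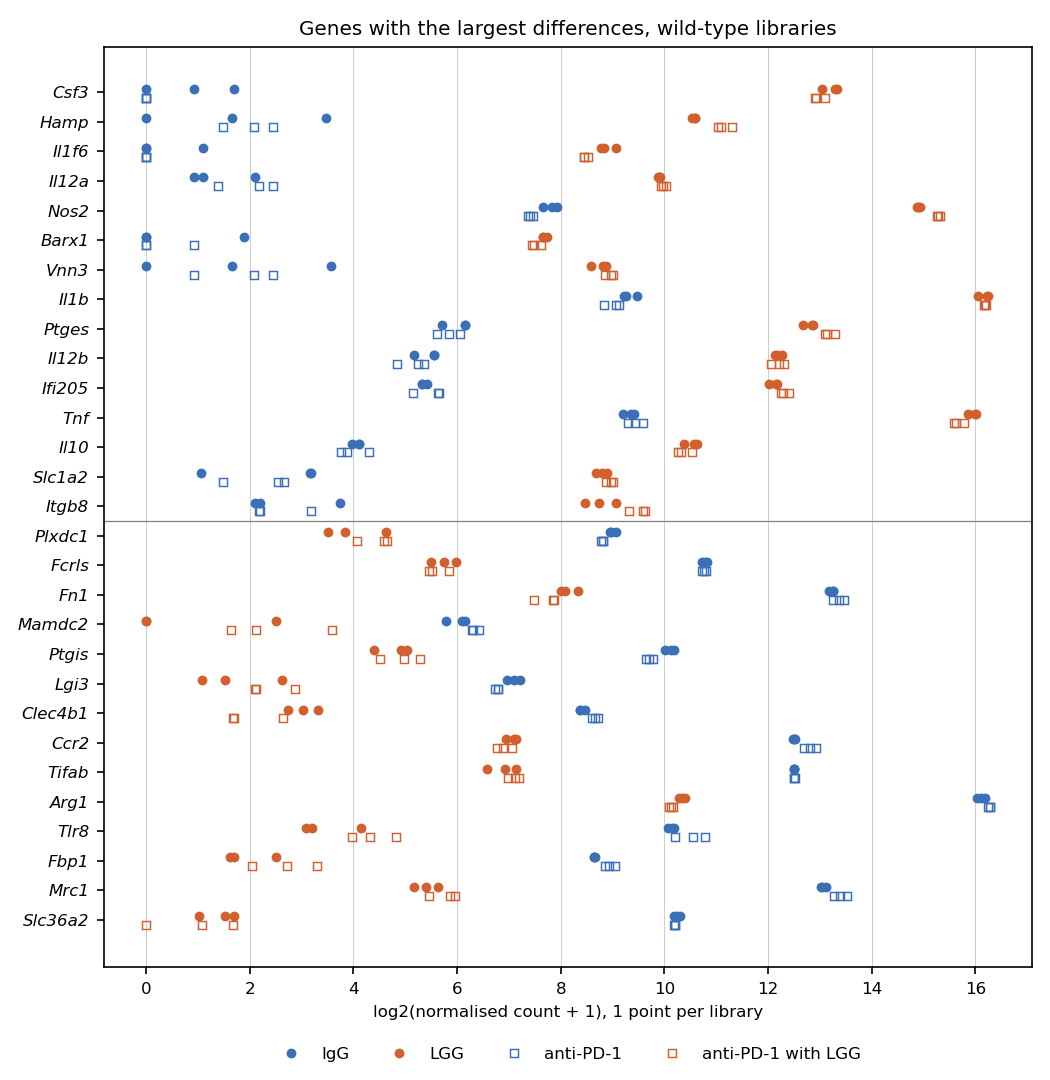
Each point is 1 wild-type library, with log2(normalised count + 1) on the x axis and the 15 genes with the largest rise (above the line) and 14 of the 15 with the largest fall (below it) on the y axis. Filled points are the 3 IgG (blue) and 3 LGG (orange) libraries and open squares the libraries with anti-PD-1, and in every gene shown the filled blue and orange points do not overlap.

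The genes that take the most reads changed places. Shares of reads grow with transcript length and are compared here only for the same gene between groups. Chil3 took the most reads of any gene in IgG and went from 2.57% ± 0.0165 to 0.293% ± 0.00648 (SD, n = 3) of the reads in the listed genes. Psap, the precursor of lysosomal lipid-binding proteins, went from 1.51% ± 0.0220 to 0.512% ± 0.0183, and the lysozyme gene Lyz2 from 0.643% ± 0.00888 to 0.113% ± 0.00430. Ccl6, a chemokine, went from 0.662% ± 0.0127 to 0.126% ± 0.00307. In the other direction Fth1, the ferritin heavy chain, went from 0.717% ± 0.0435 to 1.78% ± 0.111, and Ccl22, a chemokine of mature dendritic cells that attracts T cells, from 0.0916% ± 0.00105 to 1.58% ± 0.0746. Cst3, an inhibitor of cathepsins, went from 0.111% ± 0.00465 to 0.552% ± 0.0383 and Tmsb4x, an actin-binding peptide, from 0.261% ± 0.00805 to 0.642% ± 0.0461. Each of these genes passed the test in the direction of its share. Fth1 and Ccl22 took the most reads in LGG, where Chil3 was no longer among the 10 genes with the most.

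**Figure D3:**
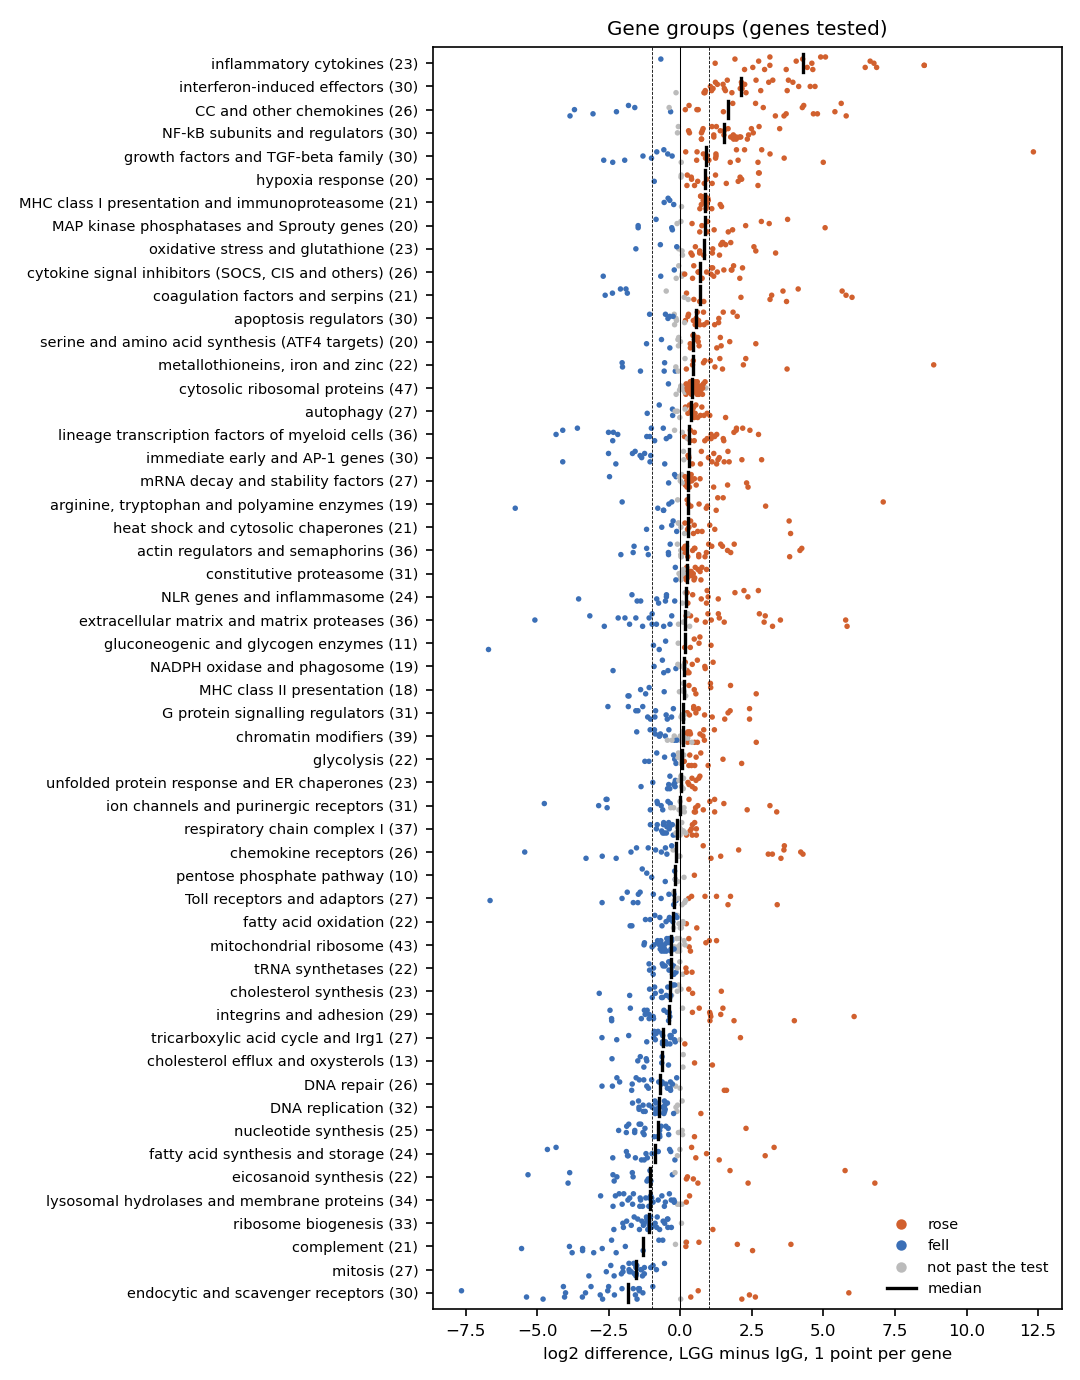
Each row is 1 gene list with its number of genes tested, and each point is 1 gene at its log2 difference, LGG minus IgG, orange where it rose, blue where it fell and grey where it did not pass the test. Black bars are medians, which run from 4.27 for inflammatory cytokines to -1.84 for endocytic and scavenger receptors.

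Genes of growth and division fell. All 27 mitosis genes tested fell, 24 of them over 2-fold, with a median of -1.56. Anln, which encodes the cleavage furrow protein anillin, was at 933, 1029 and 978 normalised counts in the IgG libraries and 98.1, 124 and 96.8 in the LGG libraries, a difference of -3.20 ± 0.14. Kif20a, a kinesin of cytokinesis, was at 764, 827 and 727 normalised counts in the IgG libraries and 133, 125 and 124 in the LGG libraries, a difference of -2.59 ± 0.09. Ccnb1, the cyclin of mitotic entry, was at 1967, 1919.8 and 1815 in IgG and 404, 327 and 417 in LGG, a difference of -2.32 ± 0.09. In these 3 genes every LGG library lay below every IgG library. Mki67, the proliferation marker Ki-67, fell by 0.96 ± 0.06, less than the list's median. Of 32 DNA replication genes 27 fell, 1 rose and 4 did not pass (median -0.75). Gins1, a subunit of the replicative helicase complex, fell by 1.67 ± 0.12 and the sliding clamp Pcna fell by 0.51 ± 0.04, while Gins3 rose by 0.72 ± 0.10. Among 26 DNA repair genes 22 fell and 2 rose (median -0.71). Ung, which removes uracil from DNA, fell by 2.74 ± 0.14 and the checkpoint kinase Chek2 fell by 2.38 ± 0.11. The 2 that rose were the p53 targets Cdkn1a, a cell cycle inhibitor, at 1.61 ± 0.05, and Mdm2 at 1.53 ± 0.05. Nucleotide synthesis genes fell in 20 of 25 cases, led by the pyrimidine enzyme Cad at -2.16 ± 0.08 and the purine enzyme Gart at -1.89 ± 0.09. Cmpk2, a nucleotide kinase that is also induced by interferon, rose by 2.29 ± 0.10.

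Ribosome synthesis and ribosomal proteins went opposite ways. Of 33 ribosome biogenesis genes 31 fell, 19 over 2-fold, 1 rose and 1 did not pass (median -1.09). Utp20, a processing factor of the small subunit, was at 1498, 1576 and 1421 normalised counts in the IgG libraries and 271, 297 and 328 in the LGG libraries, a difference of -2.33 ± 0.08. Dkc1, the pseudouridine synthase dyskerin, fell by 2.01 ± 0.10 and Rrp12 fell by 1.99 ± 0.11, and the rise was in the polymerase subunit Polr1c at 1.13 ± 0.06. Of 47 genes of cytosolic ribosomal proteins 37 rose, 1 fell and none passed 2-fold (median 0.40). Rps20 rose by 0.86 ± 0.11 and Rpl37 by 0.80 ± 0.10, while Rps2 fell by 0.42 ± 0.07. Ribosomal protein transcripts are short, and genes with transcripts of at most 2242 bases had a median of 0.15. After removal of a trend with GC content and transcript length, 31 of the 47 rose and 5 fell, and with all 24 libraries in the fit 3 rose and 0 fell. Genes of the constitutive proteasome showed rises of similar size in 21 of 31 members (median 0.22), of which 5 passed with all 24 libraries. Among 22 tRNA synthetase genes 16 fell and 3 rose, with Vars, the valine enzyme, at -1.10 ± 0.05.

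Genes of the mitochondrial citrate cycle fell while those of glycolysis divided. Of 27 genes on the cycle's list 24 fell, 2 rose and 1 did not pass (median -0.62). Idh2, the mitochondrial isocitrate dehydrogenase, was at 2500.3, 2381 and 2547 normalised counts in the IgG libraries and 375, 385 and 349 in the LGG libraries, a difference of -2.74 ± 0.06. Idh1, its cytosolic relative, was at 6630.2, 6436 and 6422 in IgG and 1324, 1453 and 1389.6 in LGG, a difference of -2.23 ± 0.05. No LGG library of either gene reached an IgG library. Idh3a, a subunit of the cycle's own isocitrate dehydrogenase, fell by 1.81 ± 0.07 and fumarase, Fh1, fell by 1.18 ± 0.06. Acod1, which makes itaconate from a cycle intermediate and is also named Irg1, was at 6738, 6769 and 6598 normalised counts in the IgG libraries and 29414, 29146 and 27569 in the LGG libraries, a rise of 2.10 ± 0.04. Complex I of the respiratory chain moved little, with 8 of 37 genes higher, 15 lower and 14 not past the test (median -0.11). Its 2 extremes were Ndufs1 at -1.05 ± 0.06 and Ndufv2 at 0.56 ± 0.07, and 0 rose and 8 fell with all 24 libraries in the fit, or 4 rose and 23 fell after removal of the length and GC trend. Mitochondrial ribosome genes fell in 26 of 43 cases and rose in 6 (median -0.33), against 13 and 3 with all 24 libraries.

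On the glycolysis list 10 of 22 members rose, 7 fell and 5 missed the threshold. Pfkfb3, which makes the activator of phosphofructokinase, was at 1283, 1296 and 1256 normalised counts in the IgG libraries and 5388, 5282 and 6296 in the LGG libraries, a rise of 2.14 ± 0.06, and its relative Pfkfb4 fell by 1.24 ± 0.07. Of the lactate transporters Slc16a3, the exporter MCT4, rose by 1.49 ± 0.06 and Slc16a1 fell by 1.10 ± 0.08. Hexokinase 3, Hk3, fell by 0.83 ± 0.05, and pyruvate kinase, Pkm, at 0.01 ± 0.05 did not pass. In the pentose phosphate pathway 6 of 10 genes fell, with Rpia at -1.33 ± 0.10 and transketolase, Tkt, at -1.0 ± 0.06.

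The 2 arginine-using enzymes of myeloid cells exchanged ranks. Nos2, the inducible nitric oxide synthase, was at 244, 228 and 202 normalised counts in the IgG libraries and 31284, 30559 and 30018 in the LGG libraries, and Arg1, arginase, at 74089.5, 70866 and 67268 normalised counts in the IgG libraries and 1235, 1292 and 1349 in the LGG libraries. All LGG libraries were high in Nos2 and low in Arg1, and all IgG libraries the reverse, with differences of 7.09 ± 0.06 and -5.77 ± 0.05 (adjusted p = 2.03e-20 and 2.03e-20). Arg2, the mitochondrial arginase, rose by 2.98 ± 0.13, and Gch1, which starts the synthesis of the cofactor of Nos2, by 1.49 ± 0.08. The polyamine enzymes divided, with Odc1 at 1.31 ± 0.05 and spermidine synthase, Srm, at -2.04 ± 0.08.

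Lipid genes fell for the most part. Of 24 genes of fatty acid synthesis and storage 16 fell, 11 over 2-fold, and 6 rose (median -0.88). Pparg, a nuclear receptor that drives lipid storage genes, was at 733, 698 and 809 normalised counts in the IgG libraries and 23.4, 55.5 and 34.8 in the LGG libraries, a difference of -4.35 ± 0.22. G0s2, an inhibitor of lipolysis, was at 308, 352 and 343 normalised counts in the IgG libraries and 24.5, 11.3 and 6.58 in the LGG libraries, a difference of -4.65 ± 0.35. Both genes were low in all 3 LGG libraries, with no overlap. Fatty acid synthase, Fasn, fell by 1.89 ± 0.07, lipoprotein lipase, Lpl, fell by 2.36 ± 0.06 and the fatty acid carrier Cd36 fell by 1.57 ± 0.05. Hilpda, a hypoxia-inducible lipid droplet protein, rose by 3.27 ± 0.08 and Dgat1, which completes triglyceride synthesis, by 2.96 ± 0.07. Fatty acid oxidation genes fell in 13 of 22 cases and rose in 2, against 8 and 2 with all 24 libraries. Cpt1a, which admits fatty acids to mitochondria, fell by 1.76 ± 0.08. In cholesterol synthesis 15 of 23 genes fell and 3 rose. The last-step reductase Dhcr7 fell by 2.84 ± 0.09. Among efflux and oxysterol genes Pltp, a phospholipid carrier, fell by 2.39 ± 0.05, the oxysterol receptor Nr1h3 fell by 1.18 ± 0.11, and Npc2, which moves cholesterol out of lysosomes, rose by 1.12 ± 0.07 while its partner Npc1 fell by 1.28 ± 0.09.

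Stress genes rose in part. Of 23 genes of oxidative stress and glutathione 17 rose, 11 over 2-fold, and 3 fell (median 0.81). Hmox1, which breaks down haem, was at 5132, 4949.9 and 4956 normalised counts in the IgG libraries and 53297, 52327 and 45687 in the LGG libraries, a rise of 3.33 ± 0.05. Slc7a11, the cystine importer, was at 2106, 2218 and 2139.5 normalised counts in the IgG libraries and 12489.7, 13013 and 14777 in the LGG libraries, a rise of 2.64 ± 0.08. Sod2, the mitochondrial superoxide dismutase, rose by 2.57 ± 0.06 and the peroxidase Prdx1 by 1.76 ± 0.07. In all 4 genes the LGG libraries lay above the IgG libraries. Mgst1, a membrane glutathione transferase, fell by 1.56 ± 0.06, and Nfe2l2, the transcription factor NRF2, was at -0.13 ± 0.05 and lost its call in 5 of 16 alternatives. Hypoxia response genes rose in 17 of 20 cases and fell in 1 (median 0.88). Examples are Ndrg1 at 2.75 ± 0.06, the prolyl hydroxylase Egln3 at 2.73 ± 0.07, the vasodilator peptide Adm at 2.71 ± 0.21 and the mitophagy receptor Bnip3 at 2.02 ± 0.09. Vegfa at 0.03 ± 0.05 did not pass.

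Of 21 heat shock and chaperone genes 12 rose and 5 fell, against 8 and 4 with all 24 libraries. Hspa1a was at 20.7, 22.6 and 10.2 normalised counts in the IgG libraries and 252, 225 and 269 in the LGG libraries, a rise of 3.8 ± 0.28, and Hspa1b rose by 3.85 ± 0.21. These are near-identical copies of the inducible HSP70 gene, and how reads shared by copies were assigned is not given in the sources used here. Hspd1, the mitochondrial chaperonin, fell by 1.18 ± 0.05. Endoplasmic reticulum stress genes divided, 8 up and 10 down of 23, with the chaperone Hspa5 at 0.54 ± 0.05 and Pdia4 at -1.38 ± 0.04. Among ATF4 targets 13 of 20 rose, with the phosphatase subunit Ppp1r15a at 1.72 ± 0.07, while the serine synthesis enzyme Phgdh fell by 1.18 ± 0.07. Metal genes rose in 13 of 22 cases and fell in 6. Beside Hamp these include Lcn2, which binds bacterial iron carriers, at 3.73 ± 0.09, the metallothionein Mt2 at 2.20 ± 0.09 and Fth1 at 1.47 ± 0.08. The transferrin receptor Tfrc fell by 1.40 ± 0.06 and Hfe, a regulator of iron uptake, fell by 2.04 ± 0.06.

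Lysosome and uptake genes fell. Of 34 lysosomal genes 29 fell, 19 over 2-fold, 2 rose and 3 did not pass (median -1.07). Lipa, the acid lipase, was at 12865, 13341 and 13292 normalised counts in the IgG libraries and 1876, 1963 and 1873 in the LGG libraries, a difference of -2.79 ± 0.04. Cathepsin C, Ctsc, was at 17967, 18045 and 17506 normalised counts in the IgG libraries and 4097, 4064 and 3969.5 in the LGG libraries, a difference of -2.14 ± 0.04. Both genes were lower in every LGG library. Cathepsins B, D, L and S (Ctsb, Ctsd, Ctsl, Ctss) fell, at -1.04 ± 0.05, -1.10 ± 0.07, -1.39 ± 0.05 and -1.09 ± 0.05, and cathepsin Z, Ctsz, rose by 0.32 ± 0.07. Tfeb, a transcription factor for lysosomal genes, fell by 2.27 ± 0.07. Autophagy genes went the other way, with 19 of 27 higher and 4 lower (median 0.38). The cargo receptors Sqstm1 and Tax1bp1 rose by 1.58 ± 0.05 and 1.03 ± 0.04, and the conjugation enzyme Atg7 fell by 1.16 ± 0.06.

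Of 30 endocytic and scavenger receptor genes 23 fell, 22 over 2-fold, and 6 rose (median -1.84). Beside Mrc1, the lectins Clec4a3 and Clec4a2 fell, at -4.80 ± 0.16 and -4.09 ± 0.08 and Clec10a fell by 3.32 ± 0.10. Clec4e, the receptor Mincle for microbial glycolipids, was at 356, 403 and 319.7 normalised counts in the IgG libraries and 21806, 21716 and 20232 in the LGG libraries, a rise of 5.89 ± 0.07. Marco, a scavenger receptor that binds bacteria, was at 56.6, 32.5 and 49.7 normalised counts in the IgG libraries and 317, 259 and 274 in the LGG libraries, a rise of 2.62 ± 0.19, and Clec4d, the partner of Clec4e, rose by 2.41 ± 0.06. These 3 genes were high in all LGG libraries. Cd163, a haemoglobin receptor, had 68 and 2 reads in IgG and LGG, an IgG to LGG ratio of 34.3 (95% counting interval 9.13 to 289). Several of these receptors and enzymes are also macrophage markers, whose sums are given above. NADPH oxidase and phagosome genes divided, 9 up and 6 down of 19, against 4 and 4 with all 24 libraries.

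Antigen presentation genes of class I rose and those of class II divided. Of 21 class I and immunoproteasome genes 16 rose and 4 fell (median 0.87). H2-K1 rose by 0.92 ± 0.06, the peptide transporter Tap2 by 0.97 ± 0.06 and the proteasome activator Psme2 by 1.39 ± 0.07, while the trimming peptidase Erap1 fell by 0.57 ± 0.06. H2-Q7 and H2-Q4, at 1.44 and 1.10, are close relatives whose reads may not be told apart. For class II 7 of 18 genes rose and 6 fell, against 3 and 5 with all 24 libraries. Cd83, which keeps class II at the cell surface, was at 2765, 2637 and 2707 normalised counts in the IgG libraries and 17419.8, 17870.3 and 15662 in the LGG libraries, a rise of 2.65 ± 0.05. March1, the ligase that removes it, was at 932, 901 and 886 normalised counts in the IgG libraries and 225, 244 and 298 in the LGG libraries, a difference of -1.83 ± 0.09. The LGG libraries lay above IgG for Cd83 and below for March1. The peptide exchange genes H2-DMa and H2-DMb1 fell, at -1.80 ± 0.08 and -1.22 ± 0.06, and H2-Oa, which restrains them, rose by 1.75 ± 0.13. Cd1d1 and Cd1d2, paralogues that present lipids, were at 1.34 ± 0.06 and 3.02 ± 0.41.

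Genes of NF-kB and its feedback rose. Of 30 genes 28 rose, 21 over 2-fold, 0 fell and 2 did not pass (median 1.53). Nfkbia, the inhibitor that NF-kB induces, was at 3227, 3023 and 2893 normalised counts in the IgG libraries and 20869, 20919 and 19658 in the LGG libraries, a rise of 2.75 ± 0.05. Traf1, a signalling adaptor, was at 1824, 1726 and 1691 normalised counts in the IgG libraries and 20277, 20174 and 17704 in the LGG libraries, a rise of 3.47 ± 0.06. Both were high in every LGG library. The subunits Nfkb1 and Nfkb2 rose by 1.53 ± 0.04 and 2.48 ± 0.06 and the deubiquitinase Tnfaip3 (A20) by 1.95 ± 0.06. Among MAP kinase phosphatases and Sprouty genes 13 of 20 rose and 5 fell. Dusp14 was at 21.8, 17.2 and 20.3 normalised counts in the IgG libraries and 719, 688 and 656 in the LGG libraries, a rise of 5.06 ± 0.20. Gadd45b, which binds MAP kinase kinases, rose by 3.75 ± 0.06 and Dusp8 by 3.10 ± 0.39, whereas Dusp6 and Dusp7, phosphatases of ERK, fell, at -1.48 ± 0.06 and -1.48 ± 0.09. Of 26 genes of cytokine signalling 18 rose, with Socs3 at 2.17 ± 0.05 and Stat5a at 2.08 ± 0.05, and 3 fell, with Socs6 at -2.70 ± 0.07.

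The sensors upstream moved less evenly. Of 27 Toll receptor and adaptor genes 7 rose and 14 fell (median -0.23). Cd14, a co-receptor for bacterial lipids, was at 2858, 2626 and 2673 normalised counts in the IgG libraries and 29562, 29583 and 26098 in the LGG libraries, a rise of 3.38 ± 0.06. Tlr2, which senses lipoproteins of bacteria such as LGG, rose by 1.75 ± 0.05. Tlr4, the receptor for lipopolysaccharide, was at 2500.3, 2839 and 2624 normalised counts in the IgG libraries and 732, 671 and 793 in the LGG libraries, a difference of -1.86 ± 0.09, and its partner Ly96 rose by 1.66 ± 0.17. The LGG libraries thus lay above IgG for Cd14 and below it for Tlr4. Of the receptors that act in endosomes, Tlr8, Tlr11 and Tlr13 fell, the last with a difference of -2.04 ± 0.06, together with Unc93b1, which escorts them, at -1.47 ± 0.05. Inflammasome and NLR genes divided, 12 up and 10 down of 24. Pyrin, Mefv, rose by 2.72 ± 0.15, Casp4 by 2.36 ± 0.07 and Nod2 by 2.22 ± 0.08, while Nlrp1b fell by 3.56 ± 0.21 and the adaptor Pycard fell by 1.51 ± 0.11.

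Within each list of genes that act on transcription some members rose and others fell. Of 30 immediate early and AP-1 genes 17 rose and 11 fell. Fosl1 was at 16.3, 19.9 and 14.7 normalised counts in the IgG libraries and 114, 147 and 121 in the LGG libraries, a rise of 2.84 ± 0.24, and Fos at 5415, 5271 and 5077 normalised counts in the IgG libraries and 1161, 1068 and 1067 in the LGG libraries, a difference of -2.26 ± 0.05. These 2 FOS-family genes moved in opposite directions without overlap. Maff rose by 2.15 ± 0.06 and Junb by 1.53 ± 0.06, and Myc fell by 1.25 ± 0.06. Among 36 lineage factors 19 rose and 14 fell. Id2, an inhibitor of E proteins that some dendritic cells need, rose by 1.96 ± 0.05, and its relative Id3 fell by 2.37 ± 0.13. Tcf4, the plasmacytoid cell factor, rose by 1.27 ± 0.08, and Cebpe, a granulocyte factor, and Klf4, a monocyte factor, fell, at -3.60 ± 0.14 and -2.51 ± 0.06. Of 39 chromatin modifiers 14 rose and 11 fell (median 0.09), against 8 and 9 with all 24 libraries. The deacetylase Hdac11 rose by 2.65 ± 0.33 and the DNA methyltransferases Dnmt3a and Dnmt1 fell, at -1.53 ± 0.07 and -0.88 ± 0.06. Among mRNA decay factors 19 of 27 rose and 4 fell, against 9 and 2 with all 24 libraries. Zc3h12a, the ribonuclease regnase, rose by 2.36 ± 0.05 and Zfp36l2 fell by 2.48 ± 0.07.

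Promoter sequence was set beside some of these groups. All members of a list with a promoter were counted, whether or not they changed. The shares of a list thus describe its genes, not their response to LGG. RefSeq promoters of build GRCm38.p6, 250 bases before to 50 after each gene's start, were found for 10060 of the 12749 genes tested. Each of 8 short motifs was searched on both strands. The kappa B motif, searched as GGG, 2 bases of any kind and TTTCC, was in 1.67% of all promoters and in 7 of 24 (29.2%) of the NF-kB list. The interferon element ISRE, searched as TTTC, 2 bases of any kind and TTTC, was in 3.32% of all and in 16 of 23 (69.6%) of the interferon-induced effectors. The CCAAT box was in 38.6% of all promoters and in 17 of 23 (73.9%) of the mitosis genes. The E-box CACGTG, which TFEB and related factors are known to bind, was in 9.87% of all and in 8 of 25 (32.0%) of the lysosomal genes. The antioxidant response element, searched as TGAC, 3 bases of any kind and GC, was in 14.9% of all and in 6 of 19 (31.6%) of the oxidative stress genes. This loose motif was also in 6 of 25 lysosomal, 5 of 23 (21.7%) mitosis and 5 of 23 (21.7%) interferon-induced promoters. The AP-1 motif TGANTCA was in 5.09% of all promoters and in 11.5% of the 469 promoters of genes over 4-fold higher. It was also in 7.35% of the 340 promoters of genes over 4-fold lower. In the 469 and the 340 the ISRE was in 7.89% and 5.29%, and the kappa B motif in 3.62% and 1.18%. The E-box was in 7.04% and 8.53% of them, and the CCAAT box in 31.8% and 38.8%. Shares in the 469 were 1.71% for the CRE and 0.64% for an E2F motif, against 3.25% and 0.984% of all. In the 340 they were 0.882% and 0.294%, so these shares do not set the rises apart from the falls. A match is a run of letters, not evidence of binding. For each of the 5 lists the 250 bases before the start are printed for 1 member, a choice made after the values were seen. It is the member past the test with the largest change in the list's main direction. Only members with a match in those bases and a start found in an annotated transcript were considered. Genes on 1 chromosome were left out of this choice. Capitals mark the match.
Nfkbia: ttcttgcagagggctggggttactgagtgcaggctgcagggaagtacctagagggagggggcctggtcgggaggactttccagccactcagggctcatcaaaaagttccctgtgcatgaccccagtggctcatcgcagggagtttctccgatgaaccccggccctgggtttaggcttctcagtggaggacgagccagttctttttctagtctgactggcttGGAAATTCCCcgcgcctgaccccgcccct
Isg15: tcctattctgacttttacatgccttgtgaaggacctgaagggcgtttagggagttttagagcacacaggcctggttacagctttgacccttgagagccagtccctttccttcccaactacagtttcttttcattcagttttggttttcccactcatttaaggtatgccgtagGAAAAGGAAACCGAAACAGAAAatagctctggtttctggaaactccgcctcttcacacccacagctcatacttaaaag
Bub1b: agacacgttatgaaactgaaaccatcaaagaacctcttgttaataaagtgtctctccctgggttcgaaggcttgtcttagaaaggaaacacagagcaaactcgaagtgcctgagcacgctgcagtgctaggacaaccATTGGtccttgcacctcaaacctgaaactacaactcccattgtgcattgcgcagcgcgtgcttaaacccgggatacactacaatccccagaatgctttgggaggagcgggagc
Nagpa: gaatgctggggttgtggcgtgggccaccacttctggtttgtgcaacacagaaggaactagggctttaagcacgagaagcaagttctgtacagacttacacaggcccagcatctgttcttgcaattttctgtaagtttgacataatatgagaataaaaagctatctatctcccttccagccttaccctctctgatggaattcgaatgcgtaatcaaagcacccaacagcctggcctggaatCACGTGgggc
Prdx1: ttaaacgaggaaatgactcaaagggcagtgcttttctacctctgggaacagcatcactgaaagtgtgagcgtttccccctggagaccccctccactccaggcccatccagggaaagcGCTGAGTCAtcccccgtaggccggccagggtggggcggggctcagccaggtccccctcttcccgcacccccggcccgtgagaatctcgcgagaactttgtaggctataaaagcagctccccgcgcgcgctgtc
The promoter of Nfkbia lies at chr12:55492648-55492897 on the minus strand, and its kappa B match begins 29 bases before the start. That of Isg15, which encodes a ubiquitin-like modifier, lies at chr4:156200819-156201068 on the minus strand and holds 3 overlapping ISRE matches, which begin 78, 72 and 66 bases before the start. Isg15 itself was at 495, 531 and 537 normalised counts in the IgG libraries and 14637, 14557 and 11812 in the LGG libraries. The promoter of Bub1b, a kinase of the spindle checkpoint, lies at chr2:118597961-118598210 on the plus strand, with a CCAAT box whose first base is 113 bases before the start. That of Nagpa, which exposes the sorting sugar of lysosomal enzymes, lies at chr16:5204013-5204262 on the minus strand, with an E-box from 10 bases before the start. That of Prdx1 lies at chr4:116685349-116685598 on the plus strand, with its match from 133 bases before the start. In the marked stretch lies also 1 match of the AP-1 motif, so the stretch fits either motif. Bub1b, at 2251, 2052 and 2029.9 in IgG and 353, 405 and 413 in LGG, fell by 2.43 ± 0.07, and Nagpa fell by 1.83 ± 0.06.

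**Figure D4:**
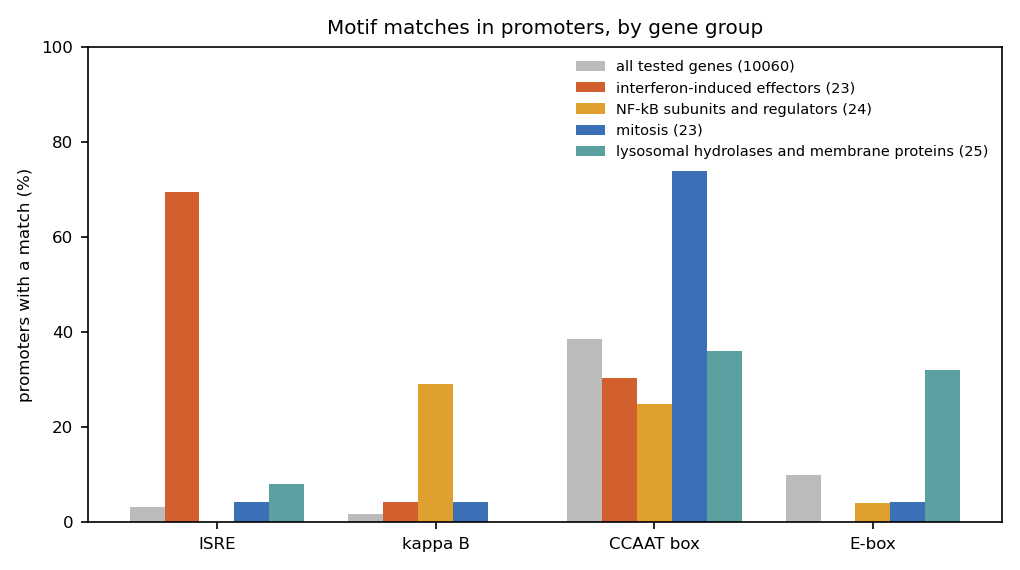
Bars give the percentage of 300-base promoters that hold a match of each of 4 motifs, for all 10060 tested genes with a promoter (grey) and for 4 gene lists (colours, number of promoters in brackets). The tallest coloured bars stand over the ISRE for interferon-induced effectors (69.6%) and over the CCAAT box for mitosis genes (73.9%), against grey bars of 3.32% and 38.6%.

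Genes of movement and adhesion changed in both directions, as all genes tested did (37.0% higher and 36.8% lower). Of 26 chemokine and formyl peptide receptor genes 11 rose and 12 fell. Ccr7, the receptor that guides dendritic cells to lymph nodes, was at 6263, 5989 and 6207 normalised counts in the IgG libraries and 80528, 78483 and 70387 in the LGG libraries, a rise of 3.63 ± 0.05. Ccr2, the receptor of inflammatory monocytes, was at 5836, 5817 and 5713 normalised counts in the IgG libraries and 121, 136 and 140.0 in the LGG libraries, a difference of -5.44 ± 0.08. The groups of both genes lay far apart and in opposite order. Fpr1 and Fpr2, receptors for bacterial formyl peptides, rose by 4.28 ± 0.10 and 4.21 ± 0.10, and Cxcr5, a receptor for follicle homing, by 3.51 ± 0.20. Among 29 integrin and adhesion genes 11 rose and 17 fell. Vcam1 was at 29.4, 39.8 and 45.2 normalised counts in the IgG libraries and 599, 609 and 616 in the LGG libraries, a rise of 3.98 ± 0.14, Icam1 rose by 1.87 ± 0.04, and Itgam, which encodes CD11b, fell by 2.41 ± 0.05 and E-cadherin, Cdh1, fell by 2.46 ± 0.07. Of 36 actin and semaphorin genes 23 rose and 8 fell. Fscn1, the actin bundler of dendrites, was at 4265, 4166 and 4532 normalised counts in the IgG libraries and 86912, 81337 and 77256 in the LGG libraries, a rise of 4.24 ± 0.06. Sema7a, a membrane semaphorin, rose by 4.18 ± 0.05, and the long-tailed myosin Myo1e fell by 2.08 ± 0.05.

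Among secreted products, coagulation and protease inhibitor genes rose in 13 of 21 cases and fell in 5. F3, tissue factor, which starts coagulation, was at 22.9, 8.13 and 15.8 normalised counts in the IgG libraries and 1019.9, 1069 and 875 in the LGG libraries, a rise of 6.00 ± 0.26. Procr, the protein C receptor, was at 948, 876 and 814 normalised counts in the IgG libraries and 45789, 45153 and 41814 in the LGG libraries, a rise of 5.65 ± 0.06. Serpinb2, an inhibitor of plasminogen activators, was at 126, 138 and 127 normalised counts in the IgG libraries and 7172, 7369.8 and 7227 in the LGG libraries, a rise of 5.79 ± 0.08. All 3 were low in every IgG library and high in every LGG library. Serpinb9 rose by 3.58 ± 0.06, and coagulation factors F5 and F7 and the anticoagulant Pros1 fell, at -2.63 ± 0.16, -2.38 ± 0.05 and -2.10 ± 0.07. Plat, the tissue plasminogen activator, rose by 5.78 ± 0.60. Extracellular matrix genes divided, with 16 of 36 higher and 15 lower. Lox, which crosslinks collagen, was at 9.80, 6.32 and 3.39 normalised counts in the IgG libraries and 358, 400.0 and 439 in the LGG libraries, a rise of 5.83 ± 0.26, and Timp1, a protease inhibitor, rose by 3.50 ± 0.16. Adamdec1, a protease of gut macrophages, fell by 3.17 ± 0.49 and Mmp12 fell by 0.99 ± 0.05.

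Prostaglandin genes were redistributed. Of 22 eicosanoid genes 8 rose and 13 fell (median -1.05). Ptgs2, the inducible cyclooxygenase, was at 607, 725 and 630.3 normalised counts in the IgG libraries and 32960.4, 34139 and 39061 in the LGG libraries, a rise of 5.76 ± 0.10. Ptgs1, the constitutive one, was at 9145, 8927 and 9114 normalised counts in the IgG libraries and 674, 613 and 573 in the LGG libraries, a difference of -3.87 ± 0.06. The 2 cyclooxygenase genes thus lay in opposite order in every library. Tbxas1, the thromboxane synthase, was at 6869, 6692 and 6781 normalised counts in the IgG libraries and 449, 447 and 438 in the LGG libraries and fell by 3.93 ± 0.05, which with Ptgis and Ptges makes 1 terminal synthase that rose and 2 that fell. Complement genes fell in 13 of 21 cases and rose in 6. The C1q chains C1qa, C1qb and C1qc fell, at -3.78 ± 0.09, -3.42 ± 0.08 and -3.42 ± 0.07, while factor B, Cfb, was at 17.4, 13.6 and 11.3 normalised counts in the IgG libraries and 78.0, 76.1 and 101 in the LGG libraries, a rise of 2.52 ± 0.26, and rose by 4.03 ± 0.26 under anti-PD-1. C1s1, a protease of the classical pathway, rose by 3.86 ± 0.22, and C5ar2, a receptor for complement fragments, fell by 3.88 ± 0.37.

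Chemokine genes rose in 18 of 26 cases and fell in 7. Beside Ccl22, Ccl17, another ligand of T cell homing, rose by 1.5 ± 0.09. The falls included Ccl12, a chemokine for monocytes, at -3.06 ± 0.20, Cxcl14 at -3.70 ± 0.29 and Ccl1 at -3.86 ± 0.23. Growth factor and TGF-beta genes rose in 20 of 30 cases. Edn1, which encodes the vasoconstrictor endothelin, was at 324, 352 and 343 normalised counts in the IgG libraries and 11173, 11363 and 10068 in the LGG libraries, a rise of 4.99 ± 0.05. Inhba, a chain of activin, was at 316, 419 and 389 normalised counts in the IgG libraries and 3565, 3618 and 7563 in the LGG libraries, a rise of 3.63 ± 0.29. Tgfb2 rose by 2.84 ± 0.19, and Igf1, an insulin-like growth factor made by macrophages, was at 11914, 12008 and 12451 normalised counts in the IgG libraries and 1847, 1915 and 1908 in the LGG libraries, a difference of -2.68 ± 0.05. In each of these genes the groups did not overlap.

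Survival and membrane signalling genes completed the lists. Apoptosis regulators rose in 20 of 30 cases and fell in 5, against 15 and 4 with all 24 libraries. They include the inhibitor Cflar at 1.99 ± 0.07, the death receptor Fas at 1.84 ± 0.06 and the survival factor Mcl1 at 0.93 ± 0.04, while Ripk3, a kinase of necroptosis, fell by 1.08 ± 0.06. Among ion channel and purinergic genes 13 of 31 rose and 12 fell. Adora2a, an adenosine receptor, was at 741, 754 and 733 normalised counts in the IgG libraries and 7862, 7754 and 7395 in the LGG libraries, a rise of 3.37 ± 0.05, and the potassium channel Kcnj10 fell by 4.76 ± 0.35. G protein signalling genes divided as well, 14 up and 13 down of 31, with the stress-induced receptor Gpr132 at 2.42 ± 0.05 and the G protein subunit Gna15 at -2.53 ± 0.08.

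Nearly all listed genes of cytokines and interferon responses rose. Of 23 inflammatory cytokine genes 22 rose and 1 fell (median 4.27), the fall being that of Tnfsf14 at -0.68 ± 0.09. Of 30 interferon-induced effectors 29 rose and 0 fell (median 2.11). Il1rn, the antagonist of interleukin-1, was at 2303, 2311 and 2204 normalised counts in the IgG libraries and 38359, 38430.3 and 35973 in the LGG libraries, a rise of 4.05 ± 0.05.

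The same bacterium was compared in 6 further wild-type libraries, LGG with anti-PD-1 against anti-PD-1 alone, which share no library with the main comparison. There 9533 of 12749 genes (74.8%) passed the test, and 3413 (26.8%) passed it with a difference over 2-fold. Genes past 2-fold in the same direction in both comparisons numbered 2881, which is 88.2% of the first list and 84.4% of the second, and 0 were past it in opposite directions. Across the 12749 genes, which are not independent replicates, Pearson's r of the log2 differences was 0.967 and the slope through the origin 1.01. The 2 medians of a list lay within 0.25 of each other on the log2 scale for 62 of 70 lists. They were -1.56 and -1.75 for mitosis, -1.07 and -1.02 for lysosomal genes, -1.09 and -1.19 for ribosome biogenesis and 1.53 and 1.6 for NF-kB genes. In 8 lists they lay further apart, with 0.63 and 1.29 for natural killer cell markers, -0.58 and 0.09 for cDC1 markers, -0.36 and 0.06 for monocyte markers, 0.51 and 0.84 for T cell markers, 1.0 and 1.46 for B cell and plasma cell markers and 0.53 and -0.15 for CD1 and related lipid presentation genes. Plasmacytoid cell markers and lineage factors were the other two. These differences between list medians were not tested. Slc36a2 was at 1172, 1184 and 1157 with anti-PD-1 and 0, 1.12 and 2.19 with both, Hamp at 1.79, 3.21 and 4.44 and 2513, 2085 and 2192, and Idh2 at 2709, 2568 and 2462 and 403, 424 and 405. Each of these genes again separated the libraries with LGG from those without it.

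The difference between the 2 effects of LGG, tested as an interaction, passed for 425 genes (3.33%), 216 with a higher value and 209 with a lower value under anti-PD-1. Because no antibody is recorded for the LGG group alone among the wild-type groups, a part of the control antibody in this difference cannot be told apart. Of these, 20 (0.157% of all genes) differed by over 2-fold, and 2504 genes had an unadjusted p under 0.05. The count of 425 rested on the libraries used. It was 1574 without LGG replicate 3, the library apart on the second component, 105 without LGG replicate 2 and 2 with all 24 libraries in the fit. Nos2 was at 177, 169 and 165 with anti-PD-1 alone and 39238, 40579 and 39945 with both, a log2 difference of 7.87 ± 0.06 against 7.09 ± 0.06 without the antibody, and the interaction was 0.78 ± 0.08 (adjusted p = 4.58e-04). Arg1 was at 79385, 77123 and 79315 and 1082, 1113 and 1152, an effect of -6.14 ± 0.05, with an interaction of -0.36 ± 0.07 (adjusted p = 0.0145). Both genes thus moved in the same directions with and without the antibody, and further with it. Depp1 was at 3.27, 8.13 and 4.52 normalised counts in the IgG libraries and 158, 197 and 131 in the LGG libraries, and at 7.18, 8.04 and 8.87 with anti-PD-1 and 69.3, 84.3 and 70.2 with both, an interaction of -1.68 ± 0.40 (adjusted p = 0.0355). It was raised by LGG in both settings and less with the antibody.

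**Figure D5:**
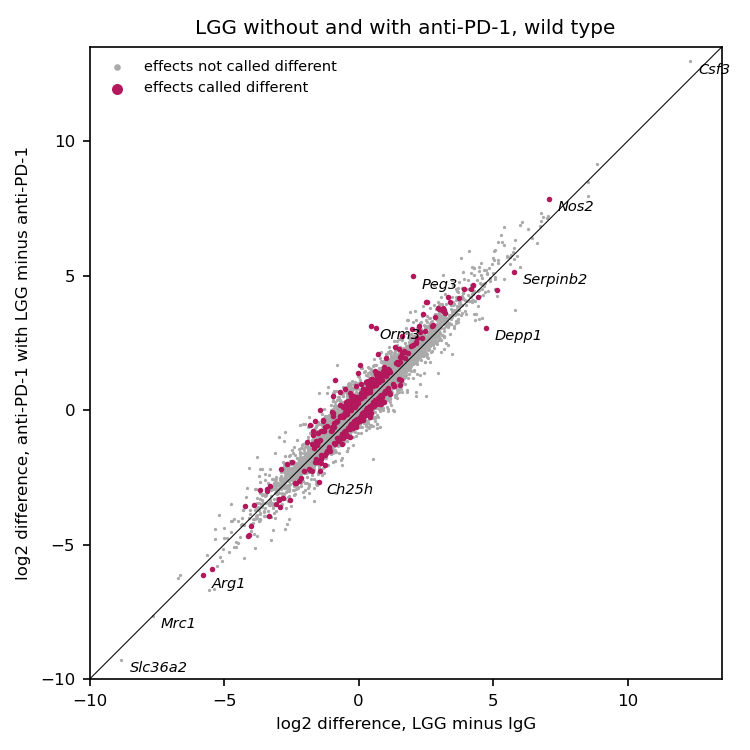
Each point is 1 of the 12749 genes, with the log2 difference LGG minus IgG on the x axis and the log2 difference of LGG with anti-PD-1 minus anti-PD-1 alone on the y axis. The line marks equal differences, the r across genes is 0.967, and the 425 genes whose 2 differences were called different are in purple.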

How the data were processed

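Bulk RNA sequencing measured 24 libraries in 8 groups of 3, of which the 12 wild-type libraries were fitted. The deposited table holds a normalised signal for 12767 genes, each value being a count divided by a factor per library. STAR 2.4.0, HTSeq 0.6.1, DESeq2 without a version and build mm10 are named per the submitters' processing notes. The table's lowest mean is 9.57, so weaker genes are not analysed here, and 12715 of its genes are protein coding. Every deposited value is a whole multiple of 1 step per library, which returned whole reads for 100% of values within a tolerance of 0.001.

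The genes were tested with limma 3.58.1 (R 4.3.3) on log2(value + 1), with 1 mean per group over the 12 wild-type libraries and empirical Bayes moderation with a trend and robust variances. Genes needed a mean of at least 10 over the 24 libraries, p-values were two-sided and adjusted by Benjamini and Hochberg over all genes tested, and the threshold was 0.05. On simulated counts, 68% of 1.25-fold, 92% of 1.5-fold, 96% of 2-fold and 100% of 4-fold changes were recovered over 12749 genes, with 0.0558% of unchanged genes called. The simulation gave every gene and group the same spread and changed 50 genes per fold, none of them low. In the data the biological coefficient of variation was 0.0887 in LGG and 0.0515 in IgG, and 73.9% of genes passed. The simulated shares therefore need not hold for this comparison. Depth limits precision for genes of a few reads.

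The comparison, the 71 gene lists and the rule for named genes were chosen with earlier results of these data known. Up to 15 rises and 15 falls with non-overlapping groups are named, then up to 6 of the largest, 3 opposing and 3 most abundant members per list, the most abundant genes, the largest effect differences and a fixed set, a few of which are not reported here. List entries matched by symbol for 1619 of 1737. All 28 listed microRNA host genes and long non-coding RNAs are outside the table and not analysed here. Replicate numbers correlated across IgG and LGG by 0.23, -0.32 and -0.20, so they do not pair those groups. Across anti-PD-1 and the combination they correlated by 0.48, 0.18 and 0.26, over 0.1 in each pair, so the block served there as a paired fit. Alternatives were a pseudocount of 8, no filter, TMM scaling, array weights, fewer or more libraries, removal of a GC and length trend, a replicate block, each library left out, and count models on whole reads (edgeR 4.0.16, DESeq2 1.42.0).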

Additional observations from a re-analysis of the deposited data

Results flagged for a closer look

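The effect of LGG differed with and without anti-PD-1 for 425 genes in the interaction test, 53 of them reported here. The limit given above on the antibody recorded for the LGG group applies to all of them. The largest excess under the antibody was in Peg3, an imprinted zinc finger gene, at an interaction of 2.95 on the log2 scale (adjusted p = 0.0355). It was at 10.9, 6.32 and 2.26 in IgG, 15.6, 25.7 and 43.2 in LGG, 0.897, 0 and 0.887 in anti-PD-1 and 41.0, 49.4 and 52.7 in the combination. Orm3, an acute phase gene, followed at 2.63, with 25.6, 48.3 and 77.0 in LGG and 81.9, 108 and 144 in the combination. Celf5, an RNA-binding protein gene, was at 2.4 and Zfp13, a zinc finger gene, at 2.00. Counts of these 4 genes are low, at most 144 in any wild-type library. Cfb, complement factor B, was at 1.51, with 6.28, 8.84 and 4.44 in anti-PD-1 and 98.7, 125 and 134 in the combination, and the C1q chains C1qb and C1qc at 0.47 and 0.40. Nos2 was at 0.78, and Arg1 at -0.36, both with a larger effect under the antibody. Ccr2 was at -0.46, with 6589, 7211 and 7755 in anti-PD-1 and 118, 133 and 107 in the combination. Depp1 was at -1.68, Ch25h, an oxysterol enzyme, at -1.17, and Serpinb2 at -0.64. Ch25h was at 134, 127 and 136 in IgG, 47.9, 55.5 and 37.6 in LGG, 223, 169 and 226 in anti-PD-1 and 29.4, 30.3 and 35.1 in the combination.

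The other named genes follow by kind. Interferon-induced genes with a positive interaction were Cmpk2 (0.60), Rsad2 (0.57), Irf7 (0.42) and Gbp5 (0.37). Genes typical of lymphocytes with one were Gzmb (0.62), Cd28 (0.60), Il2rb (0.48), Cd8a (0.45), Gzma (0.45) and Eomes (0.44). Over whole lists, the effects differed for 11 of 30 interferon-induced effectors, 6 of 21 T cell markers and 6 of 11 natural killer cell markers, against 3.33% of all genes. Further positive values were those of Nlrc3 (0.77), Nr4a3 (0.50), Fscn1 (0.42), Sema7a (0.32), Dusp5 (0.29), Arid5a (0.26), Slc15a3 (0.25) and Myo1f (0.25). Negative values were found in the lectin gene Clec12a (-0.79) and in the uptake, lipid and macrophage genes Clec10a (-0.62), Clec4a2 (-0.56), Naaa (-0.44), Ctsc (-0.37), Chil3 (-0.34), Lpl (-0.34), Cd36 (-0.33) and Mgl2 (-0.31). The remaining negative values were those of Ero1l (-0.50), Sqstm1 (-0.45), Gpr141 (-0.42), Dnajb9 (-0.41), Odc1 (-0.39), Nrp1 (-0.32), Nfe2l2 (-0.31), Npm1 (-0.30), Prps1 (-0.28), Pcna (-0.27), Eef1a1 (-0.27), Eprs (-0.26) and Anxa3 (-0.25).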

How the results depend on the processing

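The count for LGG against IgG was 9192 to 9844 in 9 alternatives and 7081 with all 24 libraries, and 8954 to 9453 when each library was left out. Past 2-fold it was 2991 to 3324, and 3251 to 3346 with a library left out. For the interaction, the 425 became 2161 with array weights, 2 with all 24 libraries, 789 with DESeq2 and 691 with the GC and length trend removed, and 105 to 1574 with each library left out. With the replicate block it became 707. The block gave 9604 for LGG against IgG and 9742 against 9533 for the comparison under anti-PD-1, and turned no call of a named gene into a lost one. The cause of the moved interaction counts was not tested. The fit with only the libraries compared could not be run for the interaction, which needs all 12. Of 618 named genes 588 passed. Over 16 alternatives 62 of these lost the call at least once, 59 calls being lost with all 24 libraries, and 0 reversed. Among genes described in the text, these are Nfe2l2, Rps2, Rps20, Rpl37, Ctsz, H2-Aa, Ciita, Ndufv2, Zfp13, Gzmb, Anxa3 and Eef1a1. The array weight of LGG replicate 3 was 0.278.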

Other observations

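Genes that share the start of their symbol were grouped after the values were seen, with no test. Of 14 intraflagellar transport genes (Ift) 11 rose and 1 fell (median 0.50), and of 333 zinc finger genes (Zfp) 148 rose and 54 fell (median 0.25). For 20 nucleoporin genes (Nup) 3 rose and 14 fell (median -0.75), for 7 importin genes (Ipo) 1 rose and 6 fell (median -0.82), and for 8 genes of the augmin complex (Haus) 0 rose and 8 fell (median -0.78). Of 12 genes of N-glycan assembly (Alg) 1 rose and 9 fell (median -0.62), and of 9 mannosidase-related genes (Man) 2 rose and 7 fell (median -0.73). Kallikrein-related genes (Klk), 7 in number, divided so that 1 rose and 6 fell (median -1.27). Of 9 genes of matrix proteases with thrombospondin repeats (Adamts) 6 rose and 1 fell (median 1.97). Of 7 Stat genes 7 rose and 0 fell (median 1.29), and of 9 casein kinase genes (Csnk) 8 rose and 1 fell (median 0.31).

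Single markers of red cells and granulocytes moved by more than the sums of their lists. For erythroid and platelet markers these were 3407 to 4049 in IgG and 4183 to 4695 in LGG. Without Pf4 they were 1262 to 1514 in IgG and 2530 to 2769 in LGG. For neutrophil markers they were 6976 to 7235 in IgG and 7136 to 7915 in LGG. Without Mmp8 they were 3703 to 3976 in IgG and 6177 to 6965 in LGG. Hbb-bt, a beta globin gene, was at 2.18, 9.03 and 3.39 normalised counts in the IgG libraries and 159, 127 and 156 in the LGG libraries, a rise of 4.83 ± 0.35. Camp, which encodes the antimicrobial peptide cathelicidin, was at 2.18, 3.61 and 0 normalised counts in the IgG libraries and 91.4, 98.7 and 60.1 in the LGG libraries, a rise of 5.08 ± 0.48. S100a9, a calprotectin subunit of neutrophils and monocytes, was at 285, 269 and 312 normalised counts in the IgG libraries and 37.9, 44.2 and 31.9 in the LGG libraries, a difference of -2.90 ± 0.16.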
